A study of Mus musculus with 61 samples.

Results

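DBA/2J is an inbred mouse strain that develops pigment dispersion in the iris, raised pressure in the eye and, with age, glaucoma, the loss of retinal ganglion cells and of their axons in the optic nerve. Described here are the DBA/2J libraries of water-treated mice aged 9 months and 4 months, which are 35 of the 61 libraries of the series. They were chosen by strain, age and treatment alone, as 25 libraries of 9 months and 10 libraries of 4 months. A second comparison kept the same 10 libraries of 4 months and used only 3 libraries of 9 months, numbered 26, 27 and 28, which stand among the 4-month columns of the deposited table. The total RNA came from retinal cells that carried Thy1.2, a surface antigen of ganglion cells, after cells stained for GFAP, Cd45.2, Cd34, Cd11c or Cd11b had been gated out. Every retina, at both ages, came from an eye whose optic nerve showed no axon degeneration, so the comparison is between ages before visible axon loss. The labels give neither the pressure of the eyes nor the number of animals behind a library, and p-values therefore measure only the spread between these libraries, which may be technical. D2-Gpnmb+ mice on water, which are DBA/2J mice with a working copy of Gpnmb and stay free of glaucoma, entered 1 comparison with 3 libraries of 9 months and 10 of 4 months. Summed values of their other 9-month libraries are given only as description. A further 7 libraries of 9-month DBA/2J given nicotinamide at 500 mg per kg per day enter no comparison between groups and were examined only for libraries that stand apart.

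Glaucoma begins as a pressure injury of ganglion cell axons, and the retina is known to answer such injury well before the cells are lost. Cytokines of the interleukin 6 family bind receptors that contain Il6st, Jak kinases are activated, and Stat3 enters the nucleus and raises acute phase genes such as A2m, Serpina3n, Lcn2 and Socs3. In the retina this response is best known in Müller glia and astrocytes, which also raise Gfap and produce complement proteins that tag synapses for removal. Injured neurons switch on transcription factors such as Atf3.

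The 9-month libraries of the table fall into 3 stretches of neighbouring columns, and what the stretches stand for is not given in the labels. The first stretch holds 6 libraries (1 to 6), the second holds 16 (between 7 and 25) and the third holds libraries 26, 27 and 28 together with all 4-month libraries. For the 22 libraries of the first and second stretches, age and position in the table cannot be told apart. Read totals ran from 5133114 to 19501444 per library at 9 months and from 5449826 to 11016497 at 4 months, and library 26 was the shallowest of all with 5133114 reads. Values below are the deposited normalised read counts, reads divided by a size factor of the library, and are not corrected for gene length.

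Marker genes showed how the sorted samples differed. The sort antigen gene Thy1 was read in every library, at 7.61 to 78.0 at 9 months (median 23.2) and at 15.4 to 63.4 at 4 months (median 30.0), and did not pass the test (log2 fold change −0.47 ± 0.28 SE, limma adjusted p = 0.223). Of 20 ganglion cell markers 16 had values, and their sum lay at 41.7 to 138 at 9 months and at 56.9 to 186 at 4 months. Rod markers were also present in every library, with a sum of 8192 to 11659 in the first stretch, 3629 to 77332 in the second, 6882 to 8581 in the third and 4954 to 10981 at 4 months. Sums of Müller glia and astrocyte markers were 3921 to 8432 in the first stretch and 1543 to 6707 in the second, against 1313 to 4527 at 4 months, and the values in libraries 26, 27 and 28 were 380, 1508 and 1500. Library 26 thus held less of the Müller and astrocyte markers than any 4-month library. Microglia and macrophage markers summed to 12.6 to 418 in the second stretch, to 5.85 to 9.71 in the first, to 3.24 to 7.76 in the third and to 3.27 to 8.81 at 4 months, so only the second stretch lay above the 4-month range in every library. In bulk samples such as these, fewer cells of a type and less RNA per cell cannot be told apart.

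**Figure D1:**
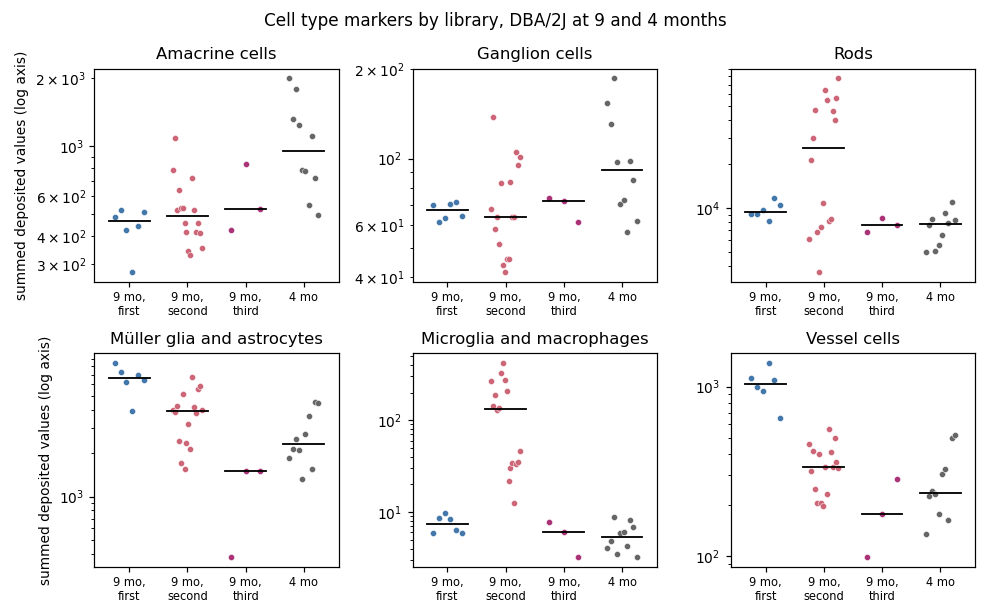
Summed deposited values of marker genes of 6 cell types (vertical log axis) in each DBA/2J library, by stretch of the table at 9 months and then at 4 months. Points are libraries and bars are medians; microglia and macrophage markers stand above the 4-month range throughout the second stretch, and Müller glia and astrocyte markers are lowest in library 26 of the third.

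The extent of the age difference depended on which 9-month libraries were used. With all 25 against the 10, limma called 3044 of 13587 genes at an adjusted p under 0.05 (22.4% of genes tested), 1257 higher (9.25%) and 1787 lower (13.2%) at 9 months. With libraries 26, 27 and 28 against the same 10, it called 36 of 13670 genes (0.263%), 30 higher (0.219%) and 6 lower (0.0439%), while 1465 had an unadjusted p under 0.05. Both comparisons share the 4-month libraries. With the stretch of columns as a covariate, a fit in which age rests on these 3 libraries and the 10, 1087 of the 3044 called genes (35.7%) had the opposite sign. None of those 1087 passed in that fit, which called 8 genes, all higher. Count models on recovered reads split the larger set differently, since 54.2% of the calls were higher with edgeR and 59.1% with DESeq2, against 41.3% with limma. For the 3 libraries the share was 94.7% of 57 calls with edgeR and 58.8% of a larger set with DESeq2, against 83.3% of 36 with limma. In 1 gene, C3, all 25 libraries lay above all 10 (0.00736% of genes tested), and in no gene did all 25 lie below all 10. The gap in C3 was smaller than the value of 1 read. Against the same 10, the 3 libraries lay above in 143 genes (1.05%) and below in 105 genes (0.768%).

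In libraries 26, 27 and 28, Stat3 and the acute phase genes A2m and Serpina3n rose, as did Slit3, a secreted axon guidance cue, Dlx3, a homeobox transcription factor, Prph, a neurofilament-class protein of axons that is known to rise after nerve injury, Atf3, a stress-response transcription factor, and Edn2, an endothelin peptide that stressed photoreceptors are known to make. Log2 fold changes of these 8 genes, on the log2(value + 1) scale, ran from 1.86 for Stat3 to 4.06 for A2m. Of the 30 genes called higher 29 stood clear of all 10 libraries of 4 months, beside 1.05% of all genes tested. The 30 were called on these same libraries, so their separation is no further support.

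Stat3 (chromosome 11, 100886806 to 100939594, GRCm38.p6) had 223, 89.1 and 163 in libraries 26, 27 and 28, against 36.9, 39.4 and 45.4 as the lowest, median and highest of the 4-month libraries. The groups did not overlap, and the 4-month libraries were close to each other. The log2 fold change was 1.86 ± 0.17 (SE, limma adjusted p = 3.08e-05), and it passed in each of 13 fits that left out 1 library (1.57 to 2.23). In the other 22 libraries of 9 months Stat3 spanned 29.1 to 202 (median 63.5), and 21 of all 25 libraries lay above every 4-month library.

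A2m, the protease inhibitor alpha-2-macroglobulin of the acute phase (chromosome 6, 121636165 to 121679238), had 330, 30.8 and 76.8 in the 3 libraries, against 1.64, 4.48 and 8.54 as the lowest, median and highest at 4 months. No library overlapped, and library 26 stood far above the other two. The log2 fold change was 4.06 ± 0.52 (limma adjusted p = 0.0049), with 13 of 13 passes on leaving out a library. Over all 25 libraries A2m did not pass (1.31 ± 0.50, limma adjusted p = 0.0563), and 11 of 25 lay above the 4-month range.

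Serpina3n, a serine protease inhibitor that marks reactive astrocytes (chromosome 12, 104406646 to 104414334), was 235, 8.76 and 30.0 in libraries 26, 27 and 28, against 0.881, 2.27 and 4.6 as lowest, median and highest at 4 months. All 3 lay above all 10, but by little in library 27. Its log2 fold change of 3.65 ± 0.67 (limma adjusted p = 0.042) passed in 2 of 13 fits with a library left out. Over all 25 libraries the change was 1.74 ± 0.45 (limma adjusted p = 0.00541), and this passed in 35 of 35 such fits.

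Slit3 (chromosome 11, 35121456 to 35708507) had 96.2, 12.1 and 37.2 in the 3 libraries, against 0.941, 2.46 and 4.55 as lowest, median and highest at 4 months. It rose by 3.44 ± 0.44 on the log2 scale (limma adjusted p = 0.00473), and over all 25 libraries by 1.51 ± 0.46 (limma adjusted p = 0.0164). Dlx3 (chromosome 11, 95120117 to 95125296) had 102, 5.49 and 17, against 0.105, 0.358 and 1.58 at 4 months. For this transcription factor, hardly read at 4 months, the log2 change was 3.98 ± 0.53 (limma adjusted p = 0.0049). Over all 25 libraries Dlx3 did not pass (0.94 ± 0.56, limma adjusted p = 0.225). Prph (chromosome 15, 99053579 to 99058978) had 50.4, 3.69 and 6.18, against 0, 0.203 and 0.789 at 4 months, with a log2 change of 3.31 ± 0.47 (limma adjusted p = 0.0049). Each of these 3 genes passed in 13 of 13 fits with a library left out, and in each library 26 was the highest and library 27 the lowest of the 3.

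Atf3 had 28.9, 2.32 and 11.3 in libraries 26, 27 and 28, against 0.132, 1.12 and 1.99 as lowest, median and highest at 4 months (log2 fold change 2.4 ± 0.44, limma adjusted p = 0.0229). Library 27 was just above the 4-month range. Edn2 had 23.5, 1.79 and 2.43, against 0, 0.114 and 0.690 at 4 months (2.42 ± 0.45, limma adjusted p = 0.0241). Both also rose over all 25 libraries, Atf3 by 1.26 ± 0.35 and Edn2 by 1.18 ± 0.30 (limma adjusted p = 0.00904 and 0.00479). With a library left out, Atf3 passed in 11 and Edn2 in 9 of 13 fits of the 3 libraries. Edn2 stayed under 1 in every 4-month library. It met the filter in both comparisons through 9-month libraries alone, so only a rise could be called.

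Immune genes were also among the increases. H2-D1, a class I heavy chain that presents antigen, had 62.4, 23.7 and 21.5 in libraries 26, 27 and 28, against 8.59, 10.3 and 15.7 as lowest, median and highest at 4 months (1.45 ± 0.26, limma adjusted p = 0.0177). Serping1, the inhibitor of the first complement component, had 46.0, 7.38 and 11.7, against 2.47, 3.41 and 7.82 at 4 months (1.86 ± 0.38, limma adjusted p = 0.0457). It was the only call among the 30 whose groups overlapped, since library 27 lay under the highest 4-month library. H2-Q5, which RefSeq annotates as a transcribed pseudogene and which shares sequence with other class I genes, had 15.3, 1.37 and 4.66, against 0, 0.518 and 1.15 (1.94 ± 0.39, limma adjusted p = 0.042). Counting may divide reads between such similar class I genes, so their single values are uncertain.

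**Figure D2:**
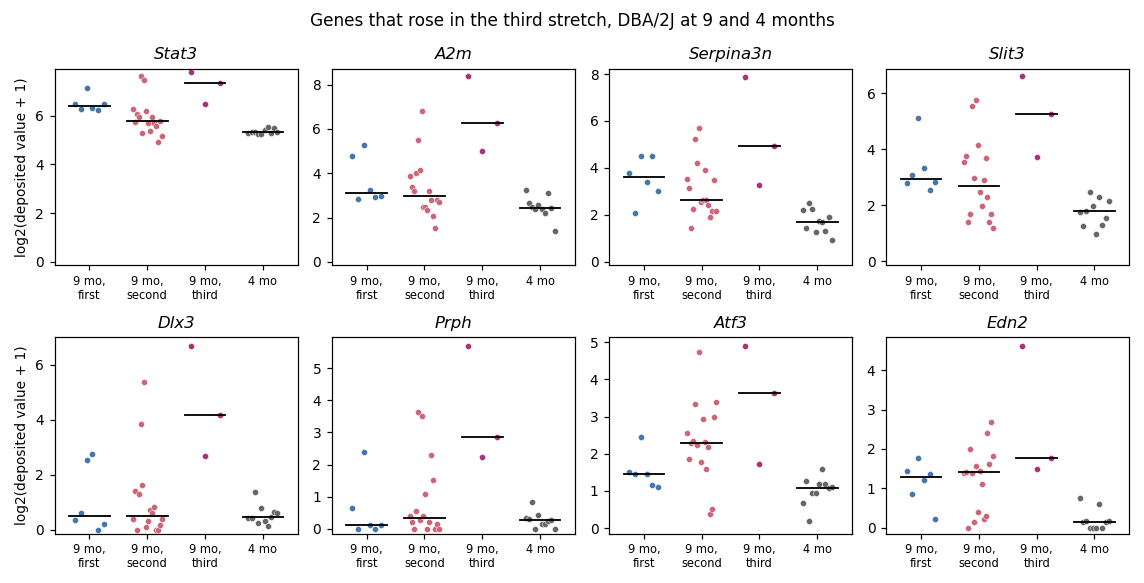
Deposited values on a log2(value + 1) axis for 8 genes that rose in libraries 26, 27 and 28, by stretch of the table at 9 months and then at 4 months. Points are libraries and bars are medians; in the third stretch all 3 points lie above every 4-month point for each gene, with the highest point from library 26.

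Library 26 was the highest of the 3 in 29 of the 30 genes that rose, library 28 in 1 and library 27 in 0, and library 27 was the lowest in 24. Leaving out library 26 left 6 calls, namely Stat3, Slit3, Dlx3, Prph, A2m and Serpina3n, all among the 36. Leaving out library 27 gave 255 calls with 36 of 36 kept, and leaving out library 28 gave 28 calls, of which 20 were among the 36. The sign of all 36 was kept in each of these fits. Leaving out 1 library of 4 months gave 22 calls without library 2, 58 without library 5, 23 without library 6 and 22 without library 8. Among the genes not selected by the rule for names and chosen after their values were seen, Sox30 had 37.6, 15.6 and 19.8, against 4.80, 6.71 and 9.84 at 4 months (1.59 ± 0.23, limma adjusted p = 0.0049). Also chosen in this way, Gpnmb, a membrane glycoprotein whose gene is mutated in DBA/2J, had 31.8, 18.6 and 26.5, against 3.69, 9.00 and 14.5 (1.44 ± 0.29, limma adjusted p = 0.042). Hif1a, the oxygen-sensing transcription factor, and Mcl1, a survival protein of the Bcl2 family, rose by 0.62 and 0.58 on the log2 scale (limma adjusted p = 0.0457 and 0.0242), of which Mcl1 was chosen after its values were seen.

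The same genes were high in single libraries outside the third stretch. Among the 22 other 9-month libraries, the highest Stat3 values were 202 in library 14, 175 in library 16 and 139 in library 3, while the median was 63.5. A2m was 112 in library 16, 43.7 in library 14 and 37.7 in library 3, and Slit3 was 53.0, 46.0 and 33.7 in the same order. Dlx3 had a median of 0.413 in the 22 and reached 40.1 in library 16.

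Fewer genes were lower in the 3 libraries. Sema6a, a transmembrane semaphorin that guides axons, had 10.5, 23.7 and 17.1 in libraries 26, 27 and 28, against 25.2, 45.6 and 77.8 as lowest, median and highest at 4 months. All 3 lay below the 4-month range, and the log2 fold change was −1.48 ± 0.28 (limma adjusted p = 0.0397), with 5 of 13 passes when a library was left out. Gpr153, an orphan G-protein-coupled receptor, had 2.91, 3.69 and 3.65, against 4.71, 9.52 and 14.7 at 4 months (−1.30 ± 0.26, limma adjusted p = 0.0397). In the first stretch Gpr153 lay the other way, at 17.7 to 45.8, and over all 25 libraries it did not pass (0.30 ± 0.36, limma adjusted p = 0.578). Rcn1, a calcium-binding protein of the endoplasmic reticulum, had 3.30, 8.76 and 8.91, against 10.1, 16.8 and 20.6 (−1.17 ± 0.24, limma adjusted p = 0.0406). The other 3 genes called lower, named after their values were seen, were Tshr, the thyrotropin receptor (−1.73), Smox, spermine oxidase (−1.43), and Il1rapl1, a synaptic adhesion protein (−1.31). Müller glia and astrocyte marker sums in libraries 26, 27 and 28 were 380, 1508 and 1500, against 1313 to 4527 at 4 months (median 2327). All 3 were under that median, but only library 26 lay below the range. The part of these sums in the decreases was not tested.

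The change with age was also set against that of D2-Gpnmb+, among libraries of the third stretch alone. The difference of age effects, DBA/2J minus D2-Gpnmb+, passed in 11 of 14219 genes (0.0774%), all with a higher age effect in DBA/2J, and 1179 had an unadjusted p under 0.05. That direction depended on the columns and the tool: with all water columns of both strains 53 genes passed, 18 with a higher and 35 with a lower age effect in DBA/2J, and with DESeq2 37 passed, 30 higher and 7 lower. Stat3 had the smallest p. Its D2-Gpnmb+ libraries of 9 months held 41.6, 45.6 and 49.0 as lowest, median and highest, against 26.5, 47.2 and 58.5 at 4 months, all inside the 4-month range. Its difference of age effects was 1.85 ± 0.26 (limma adjusted p = 0.000811) and passed in 6 of 6 fits that left out a 9-month library. Serpina3n had 0.256 to 1.22 in D2-Gpnmb+ at 9 months, against 0.668 to 3.97 at 4 months, and a difference of 4.20 ± 0.73 (limma adjusted p = 0.0103). Dlx3 had 0 to 0.863 in 9-month D2-Gpnmb+, against 0 to 1.05 at 4 months, and differed by 3.63 ± 0.59 (limma adjusted p = 0.00581).

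The other rule-named genes were also called in 3 against 10, a comparison that shares these libraries. Prph differed by 2.89 ± 0.52 and Slit3 by 3.16 ± 0.55 (limma adjusted p = 0.0103 for both), and A2m by 3.18 ± 0.60 (limma adjusted p = 0.0257). A2m was 5.43 to 15.9 in D2-Gpnmb+ at 9 months, against 2.86 to 8.23 at 4 months. Nf2 (1.09), Mpp6 (0.99), Fam78b (0.80), Sec22c (1.37) and Lrrc18 (2.08) completed the list and were named after their values were seen. Only Stat3 and Dlx3 of the 6 rule-named genes passed in all 6 fits with a 9-month library left out; Serpina3n passed in 5, Slit3 and Prph in 4 and A2m in 2. The count was 4 without DBA/2J library 26, 116 without library 27 and 7 without library 28, and 4, 4 and 5 without D2-Gpnmb+ libraries 13, 14 and 15.

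Of 24 complement genes 17 were tested over all 25 libraries, and 10 rose and 0 fell. Here and for the lists that follow, 9.25% of all genes tested rose and 13.2% fell over 25 libraries. The median log2 fold change was 1.01 for complement beside 0.02 over all genes tested. In the 3 libraries 1 of 13 tested rose, Serping1, and the list median was 0.40 beside −0.0048 over all genes. Summed complement values of the first stretch were 508 to 933 in DBA/2J and 843 to 1211 in 9-month D2-Gpnmb+. In the second they were 283 to 646, with 298 and 259 in D2-Gpnmb+, and in the third 163 to 242, with 138 to 186. D2-Gpnmb+ had 122 to 268 at 4 months. High sums in the first stretch were thus not particular to DBA/2J. C3, the central complement protein (chromosome 17, 57203967 to 57228136), ran from 2.00 to 31.6 at 9 months with a median of 5.39, against 0 to 1.98 at 4 months with a median of 0.526. It had 2.13, 2.64 and 6.68 in libraries 26, 27 and 28 and medians of 5.61 and 5.93 in the first and second stretches, so every stretch lay above the 4-month range. The lowest 9-month value was 2.0018 and the highest 4-month value 1.9838. They lay closer together than 1 read, which was worth 0.0568 or more in each of these libraries. The log2 fold change was 2.16 ± 0.33 over all 25 (limma adjusted p = 6.01e-05) and 1.5 ± 0.34 in the 3 libraries, where it did not pass (limma adjusted p = 0.08). Left-out libraries changed the count of genes with no overlap to 2 for 9-month libraries 5, 7 or 17 and for 4-month libraries 4, 9 or 10, to 3 for library 28 and to 7 for library 27.

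C4b, which acts upstream of C3 in the classical pathway, showed the stretches more plainly. It ran from 25.3 to 120 in the first stretch and from 3.26 to 31.6 in the second, was 3.88, 6.75 and 10.4 in libraries 26, 27 and 28, and ran from 1.04 to 4.24 at 4 months. The log2 fold change against the 4-month libraries was 3.59 for the first stretch, 1.92 for the second and 1.30 for the third, and only the last did not pass (limma adjusted p = 0.08). Serping1 had 11.9 to 35 in the first stretch and 4.58 to 26.6 in the second, against 2.47 to 7.82 at 4 months (25 libraries, 1.51 ± 0.26, limma adjusted p = 0.000204). Clu, the secreted chaperone clusterin that restrains complement, had 305 to 665 and 163 to 549 in the first and second stretches, and 73.5, 86.8 and 143 in libraries 26, 27 and 28, against 62.9 to 210 at 4 months. Clu is also a Müller glia and astrocyte marker. The 3 libraries lay below the other 22 (−1.80 ± 0.34, limma adjusted p = 0.0034), while 25 against 10 gave 1.45 ± 0.28 (limma adjusted p = 0.000509). C1qa, C1qb, C1qc, Itgam and Itgb2, 5 of the 10 risers, are genes of microglia, whose marker sum reached 418 in the second stretch, and the part of those cells in the count was not tested.

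**Figure D3:**
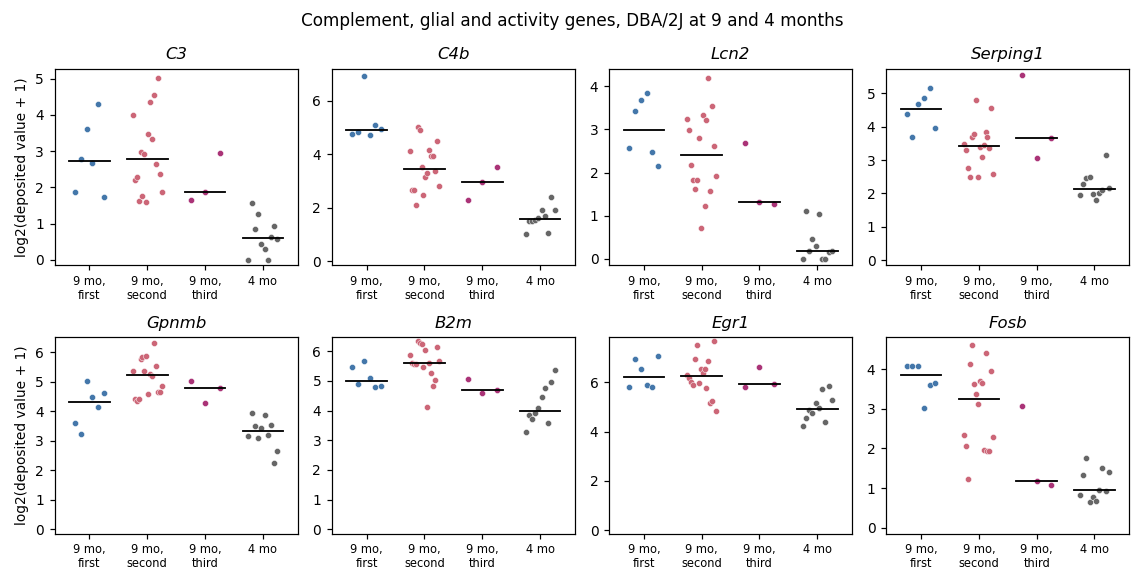
Deposited values on a log2(value + 1) axis for 8 complement, acute phase, antigen presentation and activity genes, by stretch of the table at 9 months and then at 4 months. Points are libraries and bars are medians. C3 is the gene in which no 9-month point falls as low as the highest 4-month point, by less than 1 read. Fosb in libraries 27 and 28 lies within the 4-month range.

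In the Stat3 and acute phase list, of 16 genes tested 11 rose and 0 fell over the 25 libraries, beside 9.25% that rose over all genes. The median was 0.82, and all 16 fold changes had a positive sign. Libraries 26, 27 and 28 gave 3 of 16, Stat3, A2m and Serpina3n, and the list median was 0.73. Lcn2, an iron-scavenging lipocalin of the acute phase (chromosome 2, 32384637 to 32387739), ran from 0.646 to 17.4 at 9 months (median 4.89), against 0 to 1.17 at 4 months (median 0.129). It was 5.43, 1.48 and 1.42 in libraries 26, 27 and 28, and 24 of the 25 libraries lay above all 10 (2.15 ± 0.30, limma adjusted p = 2.18e-05). In the 3 libraries alone it did not pass (1.41 ± 0.33, limma adjusted p = 0.0806). Osmr, the oncostatin M receptor that signals through Stat3, had 55.9 to 89.3 in the first stretch and 10.3 to 62.7 in the second, against 5.27 to 22.3 at 4 months, and 7.37, 19.5 and 27.3 in libraries 26, 27 and 28. Over 25 libraries it rose by 1.55 ± 0.30 (limma adjusted p = 0.000576), while in the 3 the change was 0.72 ± 0.41 and did not pass. Il6st, the shared receptor subunit, and Cebpd, a transcription factor of the acute phase, rose by 0.54 and 1.05 over the 25 libraries (limma adjusted p = 0.0025 and 0.0038). Socs3, the feedback inhibitor of the pathway and named after its values were seen, had 30.2, 1.69 and 3.44, against 0.234 to 2.39 at 4 months; it rose over the 25 (1.06 ± 0.28, limma adjusted p = 0.00607) and did not pass in the 3 (limma adjusted p = 0.136).

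Reactive glia genes overlapped with this list in several members. Of 19 tested 11 rose and 0 fell over 25 libraries, beside 9.25% that rose over all genes. In the 3 libraries 4 of 19 rose, namely Stat3, Slit3, Serpina3n and Edn2. Summed reactive glia values of the first stretch were 704 to 1069 in DBA/2J and 1391 to 1723 in 9-month D2-Gpnmb+. In the second they were 359 to 881, with 542 and 404 in D2-Gpnmb+. In the third they were 313 to 752, with 200 to 342 in D2-Gpnmb+. High sums in the first stretch were thus not particular to DBA/2J. Gfap, the intermediate filament of reactive glia and an antigen that the sort removed, ran from 0.777 to 20.5 at 9 months (median 4.23), against 0.604 to 4.03 at 4 months (median 1.07). It had 10.3, 1.90 and 9.31 in libraries 26, 27 and 28, a log2 change of 1.27 ± 0.33 over 25 (limma adjusted p = 0.00525) and of 1.61 ± 0.37 in the 3 (limma adjusted p = 0.0807). Vim, an intermediate filament of Müller glia, went with the stretches instead: it had medians of 79.2 and 60.7 in the first and second, and 31.0, 22.2 and 29.1 in libraries 26, 27 and 28, against a median of 24.9 at 4 months. Vim rose over 25 libraries (1.07 ± 0.22, limma adjusted p = 0.000924) and did not pass in the 3 (0.06 ± 0.37). Of 15 Müller glia and astrocyte markers 6 rose over 25 libraries with a median of 0.80, whereas in the 3 libraries 0 of 15 passed and the median was −1.29. Apoe, a lipid carrier of glia, had 6.40, 24.7 and 41.5 in libraries 26, 27 and 28, 48.5 to 319 in the 22 and 24.9 to 100 at 4 months.

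Antigen presentation and interferon genes rose in number but by less. Of 23 tested 14 rose and 0 fell over the 25 libraries (median 0.66), beside 9.25% that rose over all genes. In the 3 libraries 1 of 21 rose, H2-D1 (median 0.53). Summed values of the list in the first stretch were 245 to 460 in DBA/2J and 271 to 384 in 9-month D2-Gpnmb+. In the second they were 164 to 378, with 193 and 166 in D2-Gpnmb+. In the third they were 192 to 437, with 168 to 178 in D2-Gpnmb+. B2m, the light chain of class I molecules, ran from 16.3 to 79.5 at 9 months with a median of 43.3, against 8.80 to 39.9 at 4 months with a median of 15. Values of 32.8, 23.4 and 25.2 in libraries 26, 27 and 28 lay inside the 4-month range, and the second stretch had the highest median (47.4). The change was 1.19 ± 0.22 over 25 (limma adjusted p = 0.000287) and 0.60 ± 0.36 in the 3 (limma adjusted p = 0.603). H2-K1, a class I heavy chain, had 9.30 to 32.8, against 6.47 to 13.8 (0.69 ± 0.16, limma adjusted p = 0.00187). Gbp2, an interferon-induced guanylate binding protein, had medians of 7.08 in the first stretch and 2.82 in the second, against 1.16 at 4 months (25 libraries, 1.04 ± 0.25, limma adjusted p = 0.00295). Irf9, a subunit of the factor that carries interferon signals to the nucleus, had 28.3, 6.33 and 9.31 in libraries 26, 27 and 28, against 2.51 to 7.89 at 4 months (25 libraries, 0.95 ± 0.24, limma adjusted p = 0.00428).

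Because interferon-responsive genes carry a known element in their promoters, the promoters of the list were searched for it. The letters GAAANNGAA, in which N is any base, were sought on both strands in the 250 bases before each gene start (RefSeq, GRCm38.p6). They were found in 9 of 21 promoters of the antigen presentation and interferon list (42.9%) and in 5 of the 12 whose genes rose over 25 libraries (41.7%). The share was 8.18% of all 27025 promoters in the table and 7.06% of those of genes tested in 3 against 10. Because the list was made of known interferon genes, its excess over all promoters is no result of these data. The genes that rose had no larger share than the whole list. The stretches around 1 match are printed for 4 of those 5 genes, 5′ to 3′ along the gene's strand, with the motif or its complement in capitals. Of these genes Ifit1 and Ifih1, an antiviral effector and a sensor of viral RNA, were named after their values were seen.
B2m: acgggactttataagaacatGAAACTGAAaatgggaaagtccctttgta
Gbp2: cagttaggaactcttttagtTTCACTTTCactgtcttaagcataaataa
Ifit1: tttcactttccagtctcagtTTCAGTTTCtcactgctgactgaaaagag
Ifih1: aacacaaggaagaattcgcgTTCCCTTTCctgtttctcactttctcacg
The B2m stretch lies at chr2:122147528-122147576 on the plus strand, that of Gbp2 at chr3:142620585-142620633 on the plus strand, that of Ifit1 at chr19:34640785-34640833 on the plus strand and that of Ifih1 at chr2:62646339-62646387 on the minus strand. The matches lie 139, 58, 84 and 112 bases before the gene start in the order printed, and Ifit1 holds another pair, 103 and 109 bases before its start, which overlap each other. No claim on binding can be read from a match. Beside these sequences, Ifit1 had 6.59, 3.27 and 0.810 in libraries 26, 27 and 28 and 0.0746 to 14.2 in the 22, against 0 to 1.23 at 4 months (25 libraries, 1.04 ± 0.29, limma adjusted p = 0.00977). Ifih1 had 3.88, 2.32 and 3.24, and 1.04 to 11.4 in the 22, against 0.789 to 5.16 (25 libraries, 0.89 ± 0.25, limma adjusted p = 0.0107).

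The STAT letters TTCNNNGAA were found in 2 of 18 promoters of the Stat3 and acute phase list (11.1%), in 0 of 19 promoters of genes that rose in the 3 libraries and in 8.13% of all promoters. The matches in the list lie in the promoter windows of Socs3 and Steap4, a metalloreductase of the acute phase. That of Socs3 is inside the annotated gene (chromosome 11, 117966079 to 117970336, minus strand), because the window is drawn from a start that is not the outermost one. Both are printed because Socs3 is the textbook Stat3 target.
Socs3: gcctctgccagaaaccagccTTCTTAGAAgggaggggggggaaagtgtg
Steap4: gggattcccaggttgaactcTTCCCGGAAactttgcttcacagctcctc
They lie at chr11:117969492-117969540 on the minus strand and chr5:7960336-7960384 on the plus strand (GRCm38.p6). Steap4, named for this match, did not pass over 25 libraries (0.73 ± 0.35, limma adjusted p = 0.129).

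Immediate early genes, which respond within minutes to activity, growth factors or handling of cells, rose in number over 25 libraries but hardly in the 3. Of 21 tested 11 rose and 0 fell over 25 libraries (median 0.48), beside 9.25% that rose over all genes. In the 3 libraries 1 of 23 rose, Atf3. Summed values of the list in the first stretch were 320 to 490 in DBA/2J and 521 to 938 in 9-month D2-Gpnmb+. In the second they were 244 to 608, with 244 and 276 in D2-Gpnmb+. In the third they were 323 to 347, with 232 to 249 in D2-Gpnmb+. High sums in the first stretch were thus not particular to DBA/2J. Egr1, a zinc finger transcription factor, ran from 28 to 204 at 9 months (median 72.6), against 17.9 to 56.2 at 4 months (median 29.6), and was 55.1, 97.4 and 60.3 in libraries 26, 27 and 28. The stretches were alike, with log2 changes of 1.37, 1.27 and 1.14, and the change was 1.28 ± 0.23 over 25 (limma adjusted p = 0.000307) and 1.14 ± 0.31 in the 3 (limma adjusted p = 0.146). Fosb, an AP-1 subunit, ran from 1.11 to 23.4, against 0.557 to 2.37 at 4 months (1.97 ± 0.33, limma adjusted p = 0.000162). It was 7.37, 1.27 and 1.11 in libraries 26, 27 and 28, of which only library 26 lay above the 4-month range. Cyr61, a matrix protein induced through the Hippo pathway, had 13.7 to 27.1 in the first stretch and 2.61 to 15 in the second, but 0.776, 1.48 and 1.32 in the third, against 0 to 2.12 at 4 months. All 22 libraries away from the 4-month columns lay above those 10, and none of the 3 did (25 libraries, 2.05 ± 0.33, limma adjusted p = 8.51e-05; 3 libraries, 0.18 ± 0.31, limma adjusted p = 0.892).

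Genes of axon injury and neuronal stress did not move one way. Of 24 tested 7 rose and 4 fell over 25 libraries, with a median of 0.05, beside 9.25% that rose and 13.2% that fell over all genes. In the 3 libraries 1 of 24 rose, again Atf3. Atf4, the hub of the integrated stress response, had 82.6, 60.2 and 65.8 in libraries 26, 27 and 28 and 58.6 to 187 in the 22, against 50.7 to 70.2 at 4 months (25 libraries, 0.65 ± 0.14, limma adjusted p = 0.00146). Mapk8, a Jun kinase, had 61.6 to 149 in the 22 and 162, 177 and 155 in the 3, against 132 to 194 (25 libraries, −0.54 ± 0.12, limma adjusted p = 0.00149). Gadd45b, a growth arrest gene, had 14.7, 2.85 and 5.67 in the 3, against 0.263 to 3.75 (25 libraries, 0.98 ± 0.30, limma adjusted p = 0.0159; 3 libraries, 1.38 ± 0.37, limma adjusted p = 0.129).

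Genes of microglia were read above the 4-month level in the second stretch. Of 14 microglia and macrophage markers tested 11 rose and 0 fell over 25 libraries (median 1.42), but only 3 were read well enough to be tested in the 3 libraries, and 0 of those passed. Ctss, a lysosomal protease of these cells, had 3.02 to 112 in the second stretch, 0 to 0.504 in the first and 0.194, 0.105 and 0.101 in the third, against 0 to 0.731 at 4 months. Csf1r, the receptor on which microglia depend, had 1.21 to 60.2 in the second stretch, 0 to 0.694 in the first and 0.388 to 0.506 in the third, against 0 to 0.934 at 4 months. Ptprc, which encodes the Cd45 antigen used to remove cells in the sort, had 1.71 to 8.85 in the second stretch, against at most 0.657 at 4 months. Laptm5 and Lyz2 showed the same pattern, with medians of 11.7 and 10.8 in the second stretch and 0 at 4 months. For these genes the 25 against 10 calls (Ctss 2.70 ± 0.75, limma adjusted p = 0.00951) therefore rest on the second stretch. Ctss, Csf1r and Ptprc stayed under 1 in every 4-month library. They met the filter, a value of 1 in 10 libraries, through 9-month libraries alone. For such genes only a rise could be called, so the 0 that fell is no result.

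Neuronal genes fell over 25 libraries in many lists, and amacrine cell markers had the lowest list median. Amacrine cells are the inhibitory interneurons of the inner retina. Of 16 amacrine markers tested 11 fell and 0 rose, with a median of −1.35 beside 0.02 over all genes. In the 3 libraries 0 of 17 passed and the median was −0.78. The amacrine marker sum was 278 to 1086 in the 22 libraries and 427, 834 and 529 in libraries 26, 27 and 28, against 494 to 1996 at 4 months.

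Tfap2b, a transcription factor that specifies amacrine cells (chromosome 1, 19208908 to 19238845), ran from 0 to 6.69 in the first stretch and from 2.99 to 82.8 in the second, was 37.6, 106 and 43.5 in libraries 26, 27 and 28, and ran from 40.0 to 403 at 4 months. In 21 of 25 libraries it lay below the whole 4-month range, and of the 3, library 26 lay below that range, library 28 near its lower end and library 27 within it. The log2 change was −3.46 ± 0.52 over 25 (limma adjusted p = 6.28e-05) and −1.36 ± 0.69 in the 3 (limma adjusted p = 0.524). Gad2, which makes GABA (chromosome 2, 22621015 to 22693877), ran from 0.129 to 200 at 9 months (median 9.59), against 16 to 288 at 4 months (median 116). It had 40.1, 104 and 29.2 in libraries 26, 27 and 28, inside the 4-month range, and changed by −2.61 ± 0.67 over 25 (limma adjusted p = 0.00527). Ebf3, a transcription factor of amacrine and ganglion cells, had 0.0871 to 8.16 in the 22 and 11.2, 41.2 and 19.1 in the 3, against 3.53 to 109 at 4 months. It fell over 25 libraries (−2.85 ± 0.50, limma adjusted p = 0.000228) and was higher in the 3 than in the 22 (2.91 ± 0.52, limma adjusted p = 0.00185).

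A pair of amacrine regulators also ran low in the 3 libraries. Pax6 had 22.9, 62.5 and 27.6 in libraries 26, 27 and 28 and 14 to 92.1 in the 22, against 50.6 to 218 at 4 months. The change was −1.21 ± 0.24 over 25 (limma adjusted p = 0.000745) and −1.48 ± 0.42 in the 3 (limma adjusted p = 0.193). Lhx9 had 0.388, 2.00 and 1.22, against 1.99 to 8.94, with a change of −0.97 ± 0.24 over 25 (limma adjusted p = 0.00454) and of −1.52 ± 0.33 in the 3 (limma adjusted p = 0.0687). For both genes libraries 26 and 28 lay below the 4-month range, but neither passed in the 3.

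**Figure D4:**
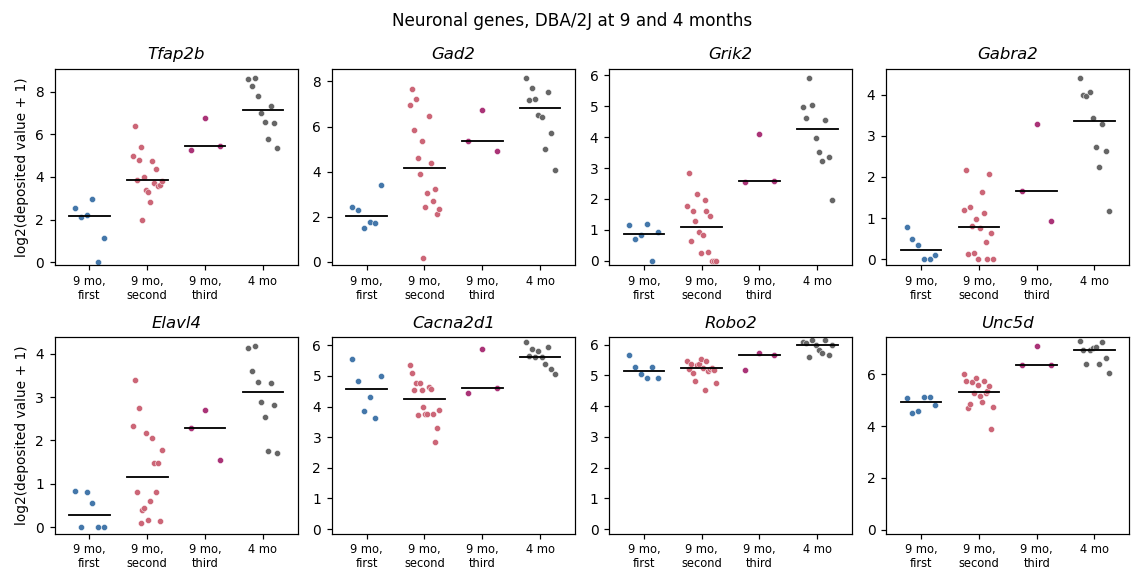
Deposited values on a log2(value + 1) axis for 8 neuronal genes, by stretch of the table at 9 months and then at 4 months. Points are libraries and bars are medians; the first and second stretches lie mostly below the 4-month points, while the third stretch overlaps them for all genes shown.

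Of 13 ganglion cell markers tested 2 fell and 0 rose over 25 libraries (median −0.47), beside 13.2% lower over all genes tested, and 0 of 15 passed in the 3 libraries (median −0.38). Elavl4, a neuronal RNA-binding protein, had a median of 0.232 in the first stretch and 1.28 in the second and 3.88, 5.49 and 1.92 in libraries 26, 27 and 28, against 2.27 to 17.1 at 4 months (25 libraries, −1.84 ± 0.35, limma adjusted p = 0.000384). Nefm, the medium neurofilament of axons, had 0 to 7.37 in the 22 and 1.36, 3.59 and 2.43 in the 3, against 0.942 to 32.4 at 4 months (25 libraries, −1.54 ± 0.35, limma adjusted p = 0.00176). Gap43, a growth cone protein, had 6.40, 2.85 and 5.57 in the 3, against 0.938 to 5.52, and did not pass in either comparison (0.64 ± 0.30 in the 3, limma adjusted p = 0.456).

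Many receptors and channels of neurons fell over 25 libraries. Of 58 receptors for glutamate, GABA, glycine and acetylcholine tested 30 fell and 0 rose (median −0.59), of 53 potassium channel genes 21 fell and 1 rose (median −0.46), and of 35 sodium, calcium and HCN channel genes 16 fell and 2 rose (median −0.64). With libraries 26, 27 and 28, 0 of 62, 0 of 55 and 0 of 36 passed, with medians of −0.21, −0.17 and −0.36. Grik2, a kainate receptor subunit, had 0 to 6.10 in the 22 libraries and 4.85, 16.1 and 4.96 in libraries 26, 27 and 28, against 2.90 to 59.7 at 4 months (25 libraries, −2.85 ± 0.38, limma adjusted p = 2.18e-05). Gabra2, a GABA-A receptor subunit, had 0 to 3.49 in the 22 and 2.13, 8.76 and 0.911 in the 3, against 1.26 to 20.4 (−2.36 ± 0.31, limma adjusted p = 2.18e-05). The 22 libraries were mostly below the 4-month range in both genes, and the 3 were within or just under it. Cacna2d1, an auxiliary calcium channel subunit, had 20.7, 57.4 and 23.6 in the 3, against 32.7 to 67.9, and 21 of 25 libraries lay below that range (−1.26 ± 0.23, limma adjusted p = 0.000286). Kcna4, a voltage-gated potassium channel, had 0.086 to 17.5 in the 22 and 21.5, 58.1 and 17.6 in the 3, against 7.05 to 70.1 (25 libraries, −2.43 ± 0.50, limma adjusted p = 0.000864; 3 libraries, −0.01 ± 0.58, limma adjusted p = 0.997).

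Genes of transmitter release and axon guidance followed. Of 32 synaptic vesicle release genes 13 fell and 0 rose over 25 libraries (median −0.45), and 0 of 32 passed in the 3 (median −0.02). Rab3c, a vesicle GTPase, had 2.20 to 66.6 in the 22 and 42.9, 115 and 74.1 in the 3, against 34.0 to 215 (25 libraries, −1.89 ± 0.38, limma adjusted p = 0.000795). Bsn, the active zone scaffold bassoon, had 208, 195 and 201 in the 3, in the middle of 163 to 270 at 4 months, while 20 of 25 libraries lay below that range (25 libraries, −0.74 ± 0.16, limma adjusted p = 0.0014; 3 libraries, −0.01 ± 0.13, limma adjusted p = 0.981). Of 64 axon guidance genes 3 rose and 17 fell over 25 libraries (median −0.06), and of 61 tested in the 3 libraries 1 rose, Slit3, and 1 fell, Sema6a (median −0.39). Robo2, a receptor for Slit proteins, had 21.8 to 49.9 in the 22 and 34.7, 51.4 and 49.1 in the 3, against 47.5 to 70.7 (25 libraries, −0.71 ± 0.11, limma adjusted p = 6.01e-05; 3 libraries, −0.42 ± 0.14, limma adjusted p = 0.267). Unc5d, a netrin receptor, had 13.9 to 63.3 in the 22, all below the 65.7 to 153 of 4 months, and 81.1, 134 and 81.8 in the 3, all inside that range (25 libraries, −1.45 ± 0.22, limma adjusted p = 6.01e-05).

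Rods and bipolar cells, whose RNA was present in every library, differed with the stretches. Of 17 rod markers 4 rose and 0 fell over 25 libraries (median 0.88), and 0 of 17 passed in the 3 (median 0.01). Rom1, an outer segment membrane protein, had 124 to 272 in the first stretch, 102 to 806 in the second and 167, 153 and 132 in the third, against 91.6 to 131 at 4 months (1.03 ± 0.27, limma adjusted p = 0.00541). Of 15 bipolar markers 1 rose and 4 fell (median −0.37). Vsx1, a transcription factor of cone bipolar cells, had 0.427 to 41.2 in the 22 and 30.6, 112 and 47.8 in the 3, against 15.1 to 178 (−2.31 ± 0.53, limma adjusted p = 0.00239). Cone markers counted 0 higher and 2 lower of 11. Beside the rod, bipolar and cone counts, 9.25% of all genes tested rose and 13.2% fell.

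Ribosomal and respiratory genes rose in number over 25 libraries. Of 79 cytosolic ribosomal protein genes 55 rose and 0 fell, with a median of 0.70, and of 79 nuclear genes of the respiratory chain 30 rose and 0 fell, with a median of 0.38. With libraries 26, 27 and 28, 0 of 79 passed in either list, and both medians were 0.14. Rps21, a small-subunit protein, had 13.2 to 20.7 in the first stretch, 17 to 43.0 in the second and 14.7, 10.3 and 9.62 in the third, against 5.00 to 10.2 at 4 months (1.36 ± 0.20, limma adjusted p = 4.25e-05). In 24 of 25 libraries it exceeded the 4-month range, the exception being library 28. Uqcrq, a complex III subunit, had 9.20 to 38.1 in the 22 and 13.4, 8.23 and 11.6 in the 3, against 4.21 to 10 (0.99 ± 0.20, limma adjusted p = 0.00072). Reads of ribosomal protein genes can be shared with their processed copies, so single values are uncertain. The 13 subunits encoded in mitochondria gave 0 calls in either direction (median −0.52 over 25, 0.07 in the 3), and mt-Nd2, a complex I subunit, did not pass over 25 (−0.94 ± 0.38, limma adjusted p = 0.0733) although the first stretch alone lay at 117 to 243, against 648 to 2351 at 4 months.

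Among antioxidant enzymes 8 rose and 1 fell of 24 over 25 libraries (median 0.37). Sod2, the mitochondrial superoxide dismutase, was the one that fell (−0.79 ± 0.17, limma adjusted p = 0.00112): it had 38.0 to 138 in the 22 but 163, 152 and 156 in libraries 26, 27 and 28, against 135 to 163 at 4 months. None of the 3 libraries thus lay below the 4-month range, and Sod2 did not pass in them (0.08, limma adjusted p = 0.809). Gpx4, which removes lipid peroxides, had 20.7 to 66.3 in the 22 and 17.1, 14.8 and 20.5 in the 3, against 16.6 to 26.4 (25 libraries, 0.81 ± 0.18, limma adjusted p = 0.00147). Of 16 genes of NAD metabolism, the pathway that nicotinamide feeds, 2 rose and 3 fell over 25 libraries (median 0.06), and 0 of 15 passed in the 3. Over all genes tested 9.25% rose and 13.2% fell over 25 libraries, so the members given here are single genes and do not speak for the list. Nmnat2, the NAD-making enzyme that protects axons, had 0 to 19.6 in the 22 and 6.01, 13.2 and 8.2 in the 3, against 4.50 to 24.4 (25 libraries, −1.37 ± 0.35, limma adjusted p = 0.00508; 3 libraries, −0.42 ± 0.40, limma adjusted p = 0.781). Nampt, the rate-limiting enzyme of NAD salvage, had 34.8 to 112 in the 22 and 103, 103 and 119 in the 3, against 61.4 to 117 (25 libraries, −0.52 ± 0.16, limma adjusted p = 0.0163). Sarm1, an enzyme that breaks down NAD in injured axons, had 55.0 to 156 in the 22 and 78.5, 128 and 132 in the 3, against 92.6 to 154 (25 libraries, −0.41 ± 0.13, limma adjusted p = 0.0176).

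The difference between the 3 and the other 22 libraries of 9 months was tested directly, with no 4-month library in the fit. Of 14590 genes 741 passed (5.08%), 346 higher (2.37%) and 395 lower (2.71%) in the 3; scaling to total reads gave 389, of which 60.2% were higher, against 46.7% of the 741, and DESeq2 gave 37.2% higher. Of 15 Müller glia and astrocyte markers 11 were lower, and Apoe (6.40, 24.7 and 41.5, against 48.5 to 319 in the 22) differed by −2.91 ± 0.44 (limma adjusted p = 0.000746). Car14, a carbonic anhydrase of Müller glia, had 0.970, 7.38 and 7.59, against 10.3 to 89.6 in the 22 (−2.86 ± 0.50, limma adjusted p = 0.00185). Col2a1, a fibrillar collagen, had 1.36, 10.1 and 15.5, against 14.4 to 212 in the 22 (−2.96 ± 0.62, limma adjusted p = 0.00678). Among those higher, Dlx3 (3.45 ± 0.82), A2m (3.12 ± 0.74) and Prph (2.79 ± 0.69) stood beside neuronal genes such as Slc8a1, a sodium-calcium exchanger, which had 263, 209 and 81.4, against 2.39 to 92.7 in the 22 (3.12 ± 0.72, limma adjusted p = 0.012). Stat3 did not pass this test (1.14 ± 0.39, limma adjusted p = 0.0841). The count rested on all 3 libraries, falling to 7 without library 26, 235 without library 27 and 315 without library 28.

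**Figure D5:**
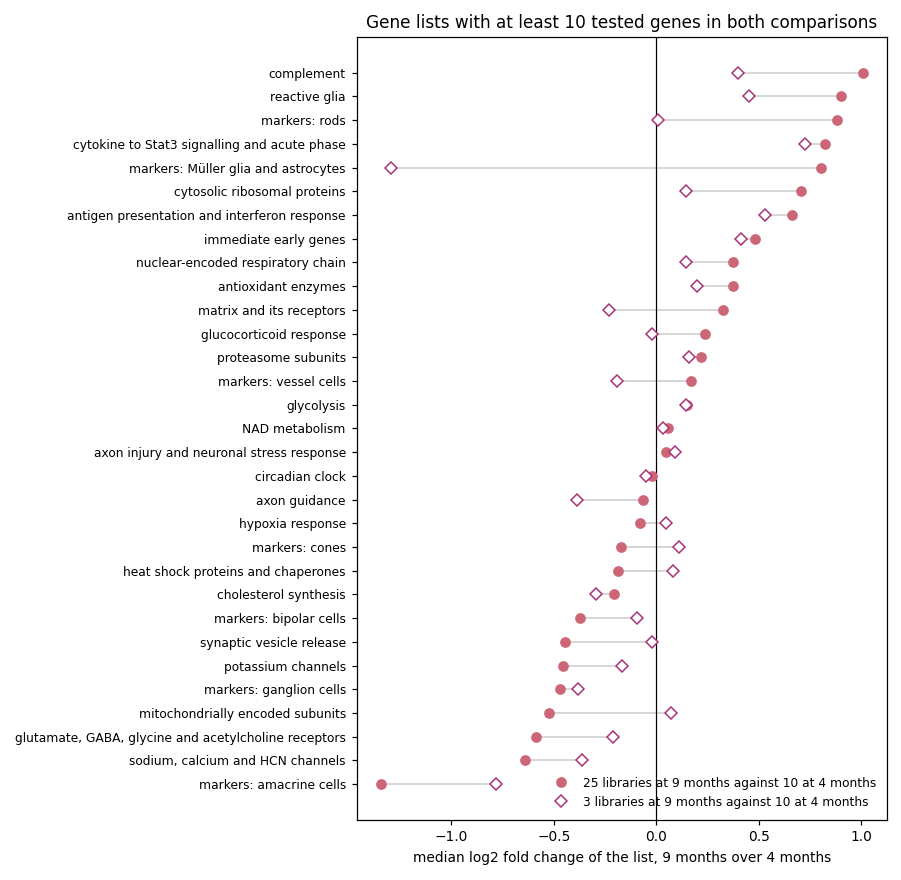
Median log2 fold change of 9 months over 4 months for each of 31 gene lists with at least 10 tested genes. Filled circles use 25 libraries of 9 months and open diamonds use libraries 26, 27 and 28, both against the same 10 of 4 months; the Stat3 and acute phase list has nearly the same median in both, whereas Müller glia and astrocyte markers lie at 0.80 with 25 libraries and −1.29 with the 3.

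The other lists are given as counts over 25 libraries, beside shares of 9.25% higher and 13.2% lower over all genes tested. In them, 8 of 34 proteasome genes rose and 1 fell, 2 of 22 glycolysis genes rose, 2 of 22 cholesterol synthesis genes fell, and of 20 heat shock and chaperone genes 4 rose and 3 fell. Hspa1b, an inducible heat shock protein, had 1.13 to 11.3 in the 22 and 1.75, 0.211 and 1.52 in the 3, against 0.350 to 1.26 at 4 months (25 libraries, 1.33 ± 0.25, limma adjusted p = 0.000325). Of 66 matrix and matrix receptor genes 11 rose and 7 fell. Col12a1, a fibril-associated collagen, had 0 to 5.67 in the 22 and 3.30, 12.1 and 0.911 in the 3, against 0 to 34.5 (25 libraries, −2.21 ± 0.40, limma adjusted p = 0.000307). Of 18 circadian clock genes 1 rose and 5 fell, of 18 hypoxia genes 1 rose and 3 fell, and of 14 glucocorticoid response genes 4 rose and 1 fell. In the 3 libraries none of these lists had a call except hypoxia, in which Hif1a rose.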

How the data were processed

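The submitters' processing notes name TopHat2 2.0.7, Bowtie2 2.0.6, HTSeq and the mouse build mm10. The deposited values are a signal: the authors scaled the reads of each gene by a library-wide factor, whose derivation the sources used here do not give. Of 15171 gene entries 22, with names turned into dates, were left out. In every library 100% of positive values were whole multiples of 1 step (tolerance 0.05), so whole reads were recovered for edgeR 4.0.16 and DESeq2 1.42.0, the alternatives. No library copied another (lowest chi-square per gene 7.29). Columns were matched to groups, not to single samples.

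The main test was limma 3.58.1 (R 4.3.3; trend, robust) on log2(value + 1), which understates changes of low genes, keeping genes that reached 1 in 10 or more libraries (25 against 10) or 3 or more (other comparisons). Adjusted p-values are Benjamini-Hochberg over all genes tested, with a threshold of 0.05, and errors are standard errors. Genes were named as the 10 largest changes each way in a comparison, averaging 5 or more in the group where the gene was higher and leaving out unnamed gene models; as up to 4 members of a list with the smallest adjusted p in 25 against 10 and up to 2 in 3 against 10; and as the 6 genes with the smallest adjusted p in the strain by age interaction. The members and lists were chosen with earlier results of these data known. The fits, except that of the interaction, were checked on simulated counts. Those counts were independent, had a single level of spread and held no difference between stretches or in cell types. The check therefore does not cover such differences.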

Additional observations from a re-analysis of the deposited data

Results flagged for a closer look

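In nicotinamide-treated DBA/2J at 9 months, 1 of 7 libraries (number 2) stood apart in all 6 genes examined, each by a gap above Dixon's critical value of 0.568 for 7 samples. Stat3 was 206.9 there and 62.8 in the next library, A2m 243.3 and 14.7, Serpina3n 121 and 4.01, Slit3 81.7 and 8.12, Dlx3 61.2 and 1.12, and Prph 29.4 and 1.30. These are the genes that were highest in library 26 of 9-month DBA/2J on water. The 6 genes move together within that library and are not 6 independent flags.

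Among the 10 libraries of 4-month DBA/2J, 12 of 83 genes examined had an end value beyond Dixon's value of 0.466. Chance flags about 1 in 20 groups if values are normally distributed. The ratio was taken on values that were not log transformed and need not be normal, so 12 of 83 cannot be set against that rate. Library 3 was highest for Dlx3 (1.58), Prph (0.789), Ptprc (0.657), Fcer1g (0.921), Grik2 (59.7, next 32.2), Nefm (32.4, next 10.6) and Col12a1 (34.5, next 16.1), and lowest for Uqcrq (4.21, next 8.58). Library 9 was highest for Serping1 (7.82, next 4.64) and Gpx4 (26.4, next 19.5), library 8 for Ctss (0.731) and library 10 for Gfap (4.03, next 1.88).

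The age effect in DBA/2J exceeded that in D2-Gpnmb+ by a test of the difference itself in 11 genes, with log2 differences of 1.85 for Stat3, 3.63 for Dlx3, 4.20 for Serpina3n, 2.89 for Prph, 3.16 for Slit3, 3.18 for A2m, 1.09 for Nf2, 0.99 for Mpp6, 0.80 for Fam78b, 1.37 for Sec22c and 2.08 for Lrrc18.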

How the results depend on the processing

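Of 25 against 10, the count of 3044 became 8 with the stretch as a covariate (A2m, Dlx3, Edn2, H2-D1, Sec22c, Serpina3n, Sox30 and Stat3), a fit that uses only the third stretch for age, and 6923 with the first stretch alone. It lay between 2337 and 3450 on leaving out 1 library, and within 1.5 times under the other pseudocounts, no filter, TMM, total scaling, edgeR, DESeq2, the 22 alone and the second stretch alone. The covariate turned the sign of 1087 of the 3044 (35.7%), among them Apoe (−1.30), Slc8a1 (0.36), Ctss (−0.0607), Csf1r (−0.0022), Ifi27l1 (−0.18), Clu (−0.13), Cryab (−0.0732), Sod2 (0.0839), Gpx4 (−0.10) and Nampt (0.22). None of the turned genes passed in that fit. Standard errors were 0.71 for Ctss and Csf1r, 0.82 for Slc8a1, 0.33 for Clu and 0.45 for Apoe, so a turned sign is not a tested reversal. Of 3 against 10, the count of 36 was 21 with a pseudocount of 4, 57 with edgeR, 2.6e+02 with DESeq2 (154 higher, 108 lower) and 6 to 255 on leaving out 1 library. Of 3 against 22, the count of 741 was 389 with total scaling, 1311 with DESeq2 and 7 to 1006 on leaving out 1 library. The 11 genes whose age effect differed between strains became 6 with total scaling, 37 with DESeq2, 53 with all water columns and 4 to 116 on leaving out 1 library of 9 months. The gene with no overlap became 0 with total scaling, and 1 to 7 on leaving out 1 library, an alternative added after the data were seen. The causes were not tested. No paired analysis was possible because the labels' titles share no replicate number between the ages, and nothing ties the table's column numbers to a pairing.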
